A study of Rattus norvegicus with 13 samples.

Results

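The calcitonin and neuroendocrine genes Calca, Calcb, Chga, Chgb, Scg2, Ret, Pcsk1, Pcsk2 and Sst were followed in the thyroid of male Wistar rat progeny. These 9 genes were chosen by name, and every gene probe carrying one of the names was kept, which gave 13 probes of the 45598 gene probes on the array. All 13 were among the 25713 probes that were well above background on at least 6 arrays and were tested. RNA from 1 thyroid was hybridised to each of 13 one-colour arrays, so each array is 1 animal.

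The mothers of the KI-treated group (6 animals) were gavaged with potassium iodide at 1 mg/kg/day for 8 days, from gestational day 9 to day 16. The mothers of the control group (7 animals) received saline on the same days, and all progeny were therefore born to gavaged dams. Thyroids were taken 30 days after weaning, and the comparison asked whether a gene still differed between the groups at that age. The labels do not name litters, so siblings of 1 dam may stand as separate samples, and the p-values measure the spread between these 13 samples.

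C cells are the minor endocrine cell type of the thyroid. They lie beside the follicles, secrete calcitonin from dense-core granules, and in rodents also hold CGRP (calcitonin gene-related peptide) and somatostatin. Calca encodes both calcitonin and CGRP by alternative splicing, and Calcb encodes a second CGRP. Chga, Chgb and Scg2 encode granins, the acidic matrix proteins of such granules. Pcsk1 and Pcsk2 encode the prohormone convertases PC1/3 and PC2, which cleave peptide precursors inside the granules, Sst encodes somatostatin, and Ret encodes the receptor tyrosine kinase for GDNF-family ligands. The parathyroid lies against the thyroid, and its chief cells are also rich in chromogranin A, the product of Chga. In whole glands, fewer C cells and less RNA per C cell cannot be told apart.

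Levels are given as log2 of the background-subtracted, processed signal minus the 75th percentile of the same array, so a level of 1 is a signal 2-fold above that percentile. Levels are compared between animals for 1 probe and never between probes. Across the 13 arrays 34840 to 41050 of the 58717 gene spots were well above background, and none was saturated. The markers of the gland itself were present. All 10 listed C cell markers and 9 of 10 follicular markers were well above background on at least 6 arrays, Slc26a4 being the exception. So were all 5 parathyroid markers. Of the 6 lymphocyte and thymus markers 5 had a probe, and none of them was. The summed level of that list was highest in KI 1, at 3.07 times the array's 75th percentile. In the control group it was at most 0.18 times that percentile.

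The arrays of control 4 and control 6 stood apart. For 3488 genes with an upstream and a downstream probe, the median difference between them, relative to each gene's median over arrays, was -0.41 in control 4 and -0.30 in control 6. It was -0.11 in control 7 and between 0.00 and 0.05 in the other 10 animals. A lower value means that sequence farther from the transcript's 3′ end gave less signal. The 75th percentile of the signal was also lowest in these arrays, at 289.5 units in control 4 and 242.2 in control 6 against 357.8 to 547.2 in the others. Both are in the control group and in the first of 3 scan sessions, with KI 2 and KI 3. The genes with upstream and downstream probes showed the same dip: relative to its median over arrays, the Calca difference was -2.03 in control 4 and -0.75 in control 6, the Pcsk1 difference -0.92 and -0.53, and the Ret difference -1.11 and -1.32. The 2 Calca probes report partly different transcripts, so their difference also holds the splicing ratio. The Ret probes are assigned to different transcript records, so the Ret difference may hold a ratio of transcripts too. Results are therefore given with and without these arrays, and the part that RNA quality had in them was not tested.

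**Figure D1:**
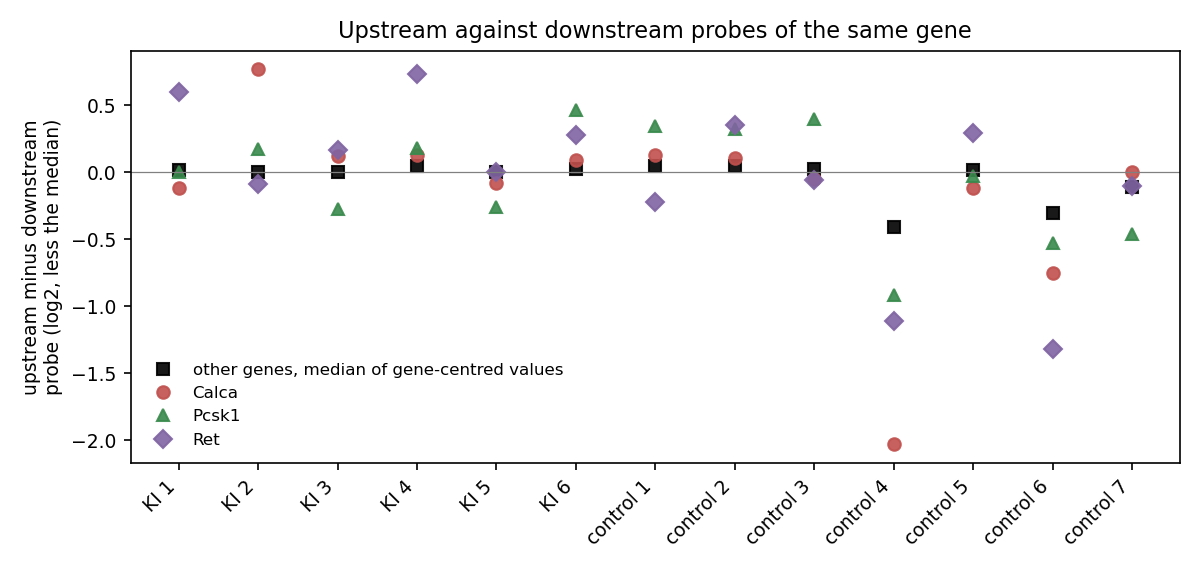
Difference between the upstream and the downstream probe of 1 gene (log2, y axis, relative to its median over arrays) in each of the 13 animals (x axis). Squares are the median over 3488 genes, and circles, triangles and diamonds are Calca, Pcsk1 and Ret; control 4 and control 6 lie lowest, with Calca at -2.03 and -0.75.

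The sequences shown are those of 3 probes taken as coding sequence, the leading probes of Calca and Pcsk2 and the second probe of Pcsk1. They were chosen because control 4 and control 6 gave less signal farther from the 3′ end. Exon positions of the probes were not looked up, and other probes may lie in coding sequence too. The upstream Ret probe and the Chga probe, for example, also had reading frames without a stop codon. Probe positions are in the coordinates of the rat build rn4 that the array files give. The Calca probe lies at chr1:172689248-172689307 on the minus strand, in sequence shared by the calcitonin and the CGRP transcripts. The Pcsk1 probe lies at chr2:1961221-1961280 and the Pcsk2 probe at chr3:132255540-132255599, both on the plus strand.
Calca: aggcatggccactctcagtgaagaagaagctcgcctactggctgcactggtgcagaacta
Pcsk1: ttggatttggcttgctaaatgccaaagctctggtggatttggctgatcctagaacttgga
Pcsk2: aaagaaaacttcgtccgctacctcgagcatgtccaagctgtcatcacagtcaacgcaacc
The second Calca probe, at chr1:172686200-172686259, matches CGRP transcripts alone. The brighter Pcsk1 probe, at chr2:1969912-1969971, lies farther downstream in the same transcript, and the Pcsk1 results below are from it unless the coding probe is named. The Calcb probe lies at chr1:172780881-172780940 on the plus strand, on the chromosome that also holds Calca.

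Promoters are shown because Calca, Chgb and Pcsk2 varied together over the 11 animals other than control 4 and control 6, whereas Scg2 and Sst did not follow them closely. RefSeq promoters of the build GRCr8 were given for 6 of the 9 genes, and none was given for Calcb, Chga and Pcsk1. Capitals mark the cAMP response element TGACGTCA or its shorter part TGACG, searched on both strands, the shorter motif lying inside the longer one. The 250 bases before the start were, for Calca at chr1:178317530-178317779 on the minus strand, for Chgb at chr3:140496462-140496711 on the plus strand and for Pcsk2 at chr3:151333688-151333937 on the plus strand:
Calca: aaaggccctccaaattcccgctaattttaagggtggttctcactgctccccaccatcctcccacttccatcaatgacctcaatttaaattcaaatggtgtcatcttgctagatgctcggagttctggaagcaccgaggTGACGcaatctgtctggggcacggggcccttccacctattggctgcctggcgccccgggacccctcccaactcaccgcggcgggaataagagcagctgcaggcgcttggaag
Chgb: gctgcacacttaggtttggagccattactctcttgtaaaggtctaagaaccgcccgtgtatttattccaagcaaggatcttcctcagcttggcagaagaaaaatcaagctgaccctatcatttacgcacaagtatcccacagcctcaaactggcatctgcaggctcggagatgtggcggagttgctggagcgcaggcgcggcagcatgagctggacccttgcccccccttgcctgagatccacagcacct
Pcsk2: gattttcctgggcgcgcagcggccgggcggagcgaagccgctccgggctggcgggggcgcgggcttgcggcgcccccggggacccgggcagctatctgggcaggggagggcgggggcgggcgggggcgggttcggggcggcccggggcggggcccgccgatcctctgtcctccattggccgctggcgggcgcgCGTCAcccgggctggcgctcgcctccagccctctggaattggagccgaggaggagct
The 30 bases around the full motif were, for Scg2 at chr9:88256971-88257000 on the minus strand and for Sst at chr11:90461537-90461566 on the plus strand:
Scg2: ggctgagccggTGACGTCAgcgaggaatgc
Sst: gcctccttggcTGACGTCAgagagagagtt
The shorter motif stood 112 bases before the Calca start and 57 bases before the Pcsk2 start, and neither form was in the Chgb or the Ret window. The full motif began 123 bases before the Scg2 start and at base 3 after the Sst start. The window searched was 250 bases before and 50 bases after the start. Among 33469 RefSeq rat promoters with this window, 1.83% held TGACGTCA and 21.2% held TGACG. The matches are letters in a window and were not related to binding.

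Among the hormone genes, the shared Calca probe ran from 6.43 to 7.79 with a median of 7.09 in the KI-treated group and from 5.72 to 7.93 with a median of 7.10 in the control group. The groups overlapped almost wholly, control 4 and control 6 being lowest and control 2 highest of all animals. The CGRP probe of Calca ran from 4.90 to 6.94 with a median of 6.43 in the KI-treated group and from 6.11 to 7.06 with a median of 6.52 in the control group. Its lowest animal was KI 2, at 4.90, and control 4, the lowest for the shared probe, was at 6.99. Between its lowest and highest animal the shared probe spanned 4.63-fold, or 2.84-fold without control 4 and control 6.

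The Calca difference between the groups did not pass for either probe. KI-treated minus control was 0.15 on the log2 scale (SE 0.34, 95% interval -0.57 to 0.87, limma adjusted p = 0.819) for the shared probe. It was -0.39 (SE 0.29, 95% interval -1.02 to 0.24, limma adjusted p = 0.515) for the CGRP probe. Without control 4 and control 6 the shared probe gave -0.26 (95% interval -0.83 to 0.31). The sign of the Calca difference therefore turned with those arrays. Calcb, the second CGRP gene, ran from 1.92 to 4.24 in the KI-treated group and from 2.56 to 4.05 in the control group, with medians of 3.16 and 3.29, and differed by -0.18 (SE 0.37, limma adjusted p = 0.798). Calcb spanned 4.99-fold between animals, and its SD within groups exceeded that of 94.0% of the tested probes.

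Sst was the most variable of the 9 genes. Its level ran from 0.54 to 4.39 in the KI-treated group, median 2.46, and from 0.73 to 4.23 in the control group, median 3.70. That is a 14.4-fold span between animals, and the SD within groups, 1.38, exceeded that of 99.6% of the tested probes. KI 2 (0.54), control 5 (0.73) and KI 1 (1.30) were lowest, and KI 4 (4.39) and control 4 (4.23) were highest, so low and high animals were in both groups. The difference was -0.54 (SE 0.67, 95% interval -1.98 to 0.90, limma adjusted p = 0.675), an interval that allows a change of more than 2-fold downward. It was -0.15 without KI 2 and -0.92 without control 5.

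**Figure D2:**
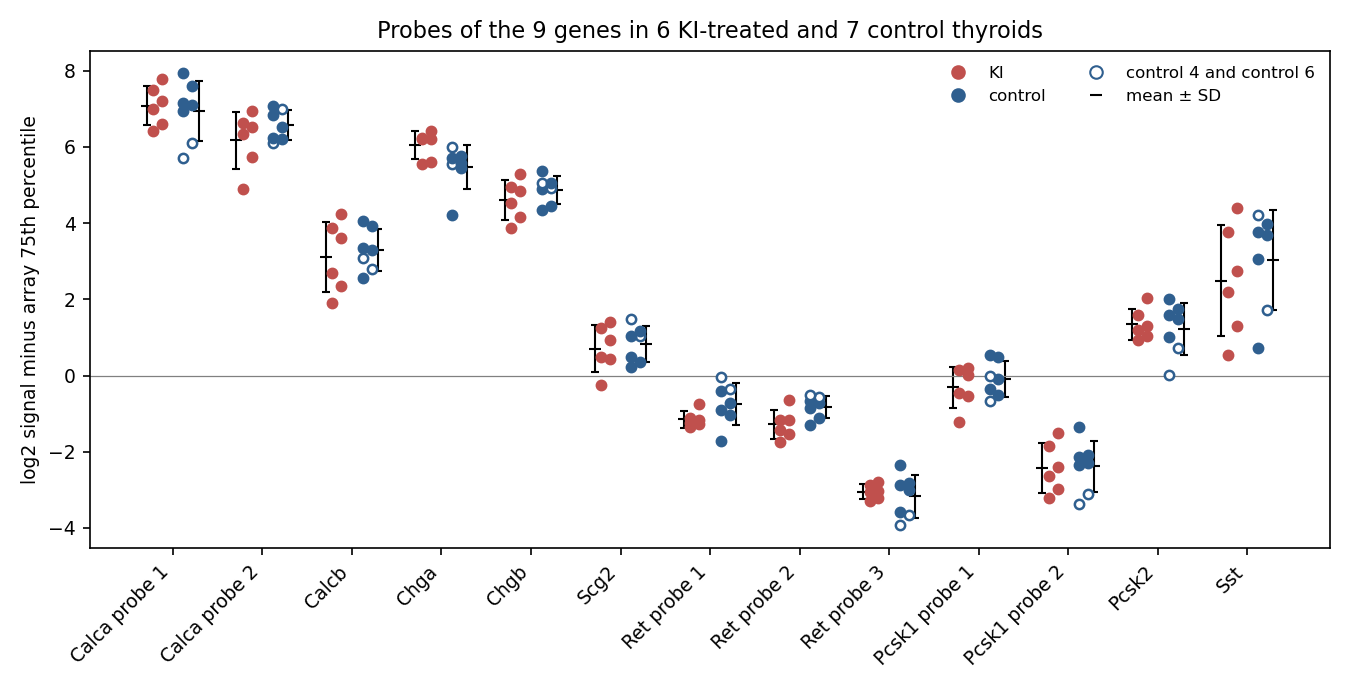
Level of all 13 probes of the 9 genes (log2 signal minus the array's 75th percentile, y axis) in the KI-treated (6) and control (7) animals, each point 1 animal, with the mean ± SD of each group beside it; probe 1 of a gene is its leading probe, and open circles are control 4 and control 6. The groups overlap for every gene, with Sst spread from 0.54 to 4.39 and Chga from 4.22 to 6.43.

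Among the granins, Chga had the largest difference relative to its error. Chromogranin A's gene ran from 5.56 to 6.43 with a median of 6.21 in the KI-treated group and from 4.22 to 5.99 with a median of 5.59 in the control group. Of the KI-treated animals 5 of 6 lay above the control median, and control 2 lay lowest, the next control animal being at 5.45. The group means were 6.04 ± 0.36 (SD, n = 6) and 5.47 ± 0.58 (SD, n = 7), and the difference was 0.58 (SE 0.25, 95% interval 0.04 to 1.11). It did not pass the threshold after adjustment over all probes (limma p = 0.037, adjusted p = 0.385, exact permutation p = 0.0309). Within the 5 slides that held both groups the KI-treated animals were higher in 5, by 0.01 to 1.66, and within the 3 scan sessions the difference was 0.56, 1.10 and -0.03. Without control 2 the difference was 0.37.

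Chgb, the secretogranin I gene, ran from 3.88 to 5.30 in the KI-treated group and from 4.34 to 5.38 in the control group, with medians of 4.68 and 4.93. Its difference was -0.27 (limma adjusted p = 0.557). Scg2, the secretogranin II gene, ran from -0.25 to 1.42 and from 0.22 to 1.47, with medians of 0.71 and 1.03, and its difference was -0.12 (limma adjusted p = 0.821). The animals of both groups were interleaved for both genes.

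The convertases also overlapped between the groups. Pcsk1 ran from -1.23 to 0.20 with a median of -0.22 in the KI-treated group and from -0.68 to 0.55 with a median of -0.09 in the control group, a difference of -0.22 (limma adjusted p = 0.656). Its coding probe differed by -0.05. Pcsk2 ran from 0.94 to 2.04 with a median of 1.24 and from 0.03 to 2.00 with a median of 1.47, a difference of 0.12 (limma adjusted p = 0.821). Control 4 was the lowest animal for Pcsk2, at 0.03, and without control 4 and control 6 the Pcsk2 difference was -0.21.

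Ret was measured by 3 probes. The leading probe, at chr4:154450996-154451055, ran from -1.34 to -0.74 in the KI-treated group and from -1.71 to -0.05 in the control group, with medians of -1.20 and -0.73. Its difference was -0.40 (limma adjusted p = 0.426, exact permutation p = 0.119). The probe at chr4:154448663-154448722 ran from -1.75 to -0.65 and from -1.31 to -0.51 and differed by -0.46 (SE 0.18, 95% interval -0.85 to -0.08, limma p = 0.0225, adjusted p = 0.369, exact permutation p = 0.0361). The probe farthest upstream in the transcript, at chr4:154460013-154460072, differed by 0.13 in the opposite direction. Without control 4 and control 6 the leading probe differed by -0.19 (limma adjusted p = 0.813) and the second probe by -0.35 (limma adjusted p = 0.601).

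Over the 13 probes of the 9 genes, 0 passed an adjusted p of 0.05 between the groups, and over all tested probes 0 did, a background of 0%. At an unadjusted limma p under 0.05 there were 2, Chga higher and 1 Ret probe lower in the KI-treated group, against a background of 12.7% of all tested probes (1469 higher, 1802 lower). The median difference was -0.18 over the 13 probes and -0.08 over all tested probes. For none of the 13 did the groups fail to overlap, against 149 of the tested probes. The smallest adjusted p among all probes was 0.257.

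Several of the 9 genes varied together between animals. Relations were measured by the Pearson r over the 13 animals after subtracting each group's mean, and tested by a limma fit of every probe on the Calca level, adjusted over all probes. Pcsk2 followed the shared Calca probe most closely (r = 0.96, Spearman rho = 0.98, limma adjusted p = 0.00109). Its permutation p of 1e-05 is the smallest that 100000 permutations can give. Calcb (r = 0.72, permutation p = 0.00309, limma adjusted p = 0.0350) and Pcsk1 (r = 0.70, permutation p = 0.0092, limma adjusted p = 0.0434) also passed, and the Pcsk1 coding probe had r = 0.94. These 3 of the 8 other genes passed against a background of 14.7% of all tested probes (3778 probes, 1842 positive and 1936 negative).

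That background depended on the arrays that stood apart. The shared Calca probe followed the upstream minus downstream measure over the 13 animals (r = 0.75) and not over the other 11 (r = 0.08). Pcsk2, whose probe was also taken as coding sequence, did the same (0.77 and 0.11). Control 4 and control 6 were also the 2 animals farthest from the median Calca level. Without them 40 probes passed, 39 of them positive, a background of 0.156%, and 19 of these had also passed in all 13 arrays. Pcsk2 (r = 0.94, limma adjusted p = 0.0419), Pcsk1 (r = 0.91, limma adjusted p = 0.0448) and Chgb (r = 0.91, limma adjusted p = 0.0484) were then past the threshold, again 3 of 8 genes. Calcb, at r = 0.89, was not (limma adjusted p = 0.0568). KI 2 and KI 3, the other animals of the first scan session, stayed among the 11. They were the lowest of the 11 for Calca (6.43 and 6.61), Calcb, Chgb and Pcsk1. The part that the scan session had in these r was not tested. Over the alternatives other than leaving out single animals, the lowest r with Calca was 0.21 for Pcsk1, 0.31 for Calcb, -0.067 for Chgb and 0.926 for Pcsk2.

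**Figure D3:**
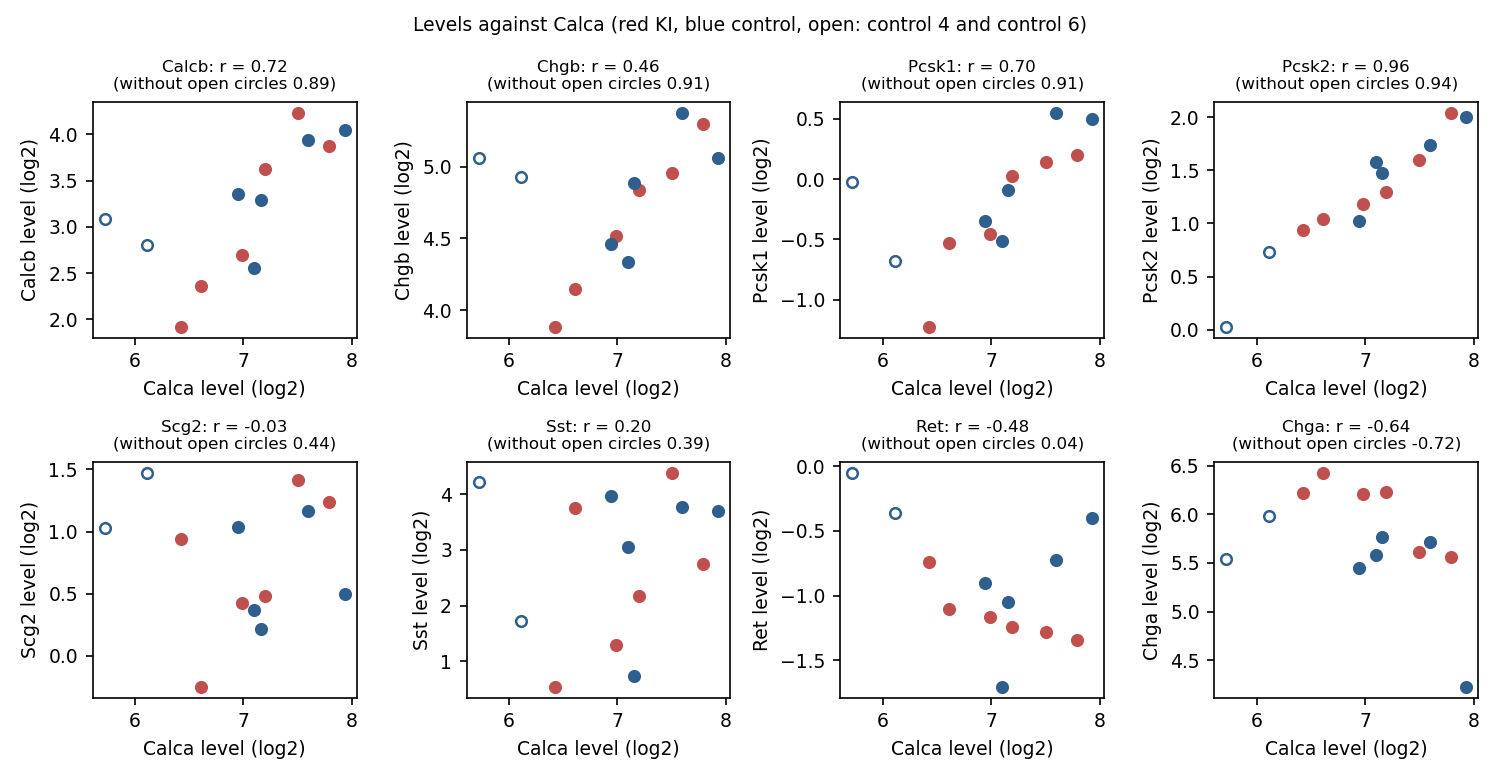
Level of each of the other 8 genes (log2, y axis) against the level of the shared Calca probe (log2, x axis), each point 1 animal, red KI-treated and blue control. Open circles are control 4 and control 6; r is over 13 animals after subtracting group means and, in brackets, over 11, for instance 0.46 and 0.91 for Chgb.

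The CGRP probe of Calca, which did not follow the upstream minus downstream measure (r = -0.02), gave other values for several genes. Its r with the shared Calca probe was 0.53 in 13 animals and 0.92 without control 4 and control 6. With it as the reference, r over 13 animals was 0.91 for Pcsk1, 0.87 for Chgb and 0.84 for Calcb, each higher than with the shared probe, and 0.39 for Pcsk2, which was lower. No probe on the array passed (background 0%). Calcb, Chgb and Pcsk1 were close among themselves as well. Calcb with Pcsk1 had r = 0.92, Chgb with Pcsk1 0.85 and Calcb with Chgb 0.84, and 0.93, 0.95 and 0.91 without control 4 and control 6. Other pairs of granin and convertase genes were not close over 13 animals: Chgb with Pcsk2 had r = 0.38, Scg2 with Pcsk1 0.12 and Chga with Chgb -0.36.

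Scg2, Ret and Sst did not follow Calca closely. The r of Scg2 with Calca was -0.03 over 13 animals and 0.44 over 11, and that of Sst was 0.20 and 0.39. The leading Ret probe had r = -0.48 over 13 animals and 0.045 over 11. With Sst as the reference no probe on the array passed (background 0%), and its highest r with the other 8 genes was 0.52, with Pcsk1.

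The r of Chga with Calca was -0.64 over 13 animals (permutation p = 0.0281, limma adjusted p = 0.0682), with Spearman rho = -0.48 (permutation p = 0.120), and -0.72 over 11 (limma adjusted p = 0.253), and without control 2 it was -0.49. It was -0.39 with quantile normalization, -0.35 in the deposited values and -0.27 with slide as a block. Of the 36 pairs among the 9 genes 22 had r above 0, or 26 without control 4 and control 6, and Chga had r below 0 in all 8 of its pairs, with and without those arrays. None of the 8 genes passed with Chga as the reference, against a background of 0.191% (49 probes, 41 positive and 8 negative, and 0 without control 2).

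The 5 parathyroid markers had r above 0 with Chga, and 1 of them passed. Gata3, a transcription factor of parathyroid development, had r = 0.87 with Chga (limma adjusted p = 0.0423) and was the one that passed. A second Gata3 probe passed as well (limma adjusted p = 0.0183), and the values that follow are those of the leading Gata3 probe. Its call was lost with quantile normalization (limma adjusted p = 0.0896) and without any single KI-treated animal (limma adjusted p from 0.052 to 0.116). It was also lost without control 3 (limma adjusted p = 0.0648), control 5 (limma adjusted p = 0.0761) or control 2 (limma adjusted p = 0.980). The others, which did not pass, were Tbx1 (0.82), the calcium-sensing receptor gene Casr (0.68), the parathyroid master regulator Gcm2 (0.63) and the parathyroid hormone gene Pth (0.56). Control 2 was lowest for both Chga (4.22) and Gata3 (-2.47). Without it the r with Chga was 0.61 for Gata3, 0.45 for Casr and 0.36 for Gcm2. The summed level of the 5 parathyroid markers had r = 0.61 with Chga and -0.80 with Calca. It is a sum of signals that is carried mostly by Pth, so it says little about the other markers. Pth alone had r = 0.56 with Chga and -0.78 with Calca, the latter -0.50 without control 4 and control 6. The sum ran from 341 to 460 times the array's 75th percentile in the KI-treated group and from 398 to 667 in the control group. The markers did not differ between the groups in 1 direction: KI-treated minus control was 1.09 for Gcm2 (exact permutation p = 0.0175, limma adjusted p = 0.353), 0.65 for Gata3 (exact permutation p = 0.053, limma adjusted p = 0.389), 0.11 for Tbx1, 0.04 for Casr and -0.24 for Pth. Gcm2 and Gata3 thus had the sign of the Chga difference and Pth the opposite sign, none of them past the adjusted threshold. Gcm2 was dim, being well above background on 11 arrays only. Its levels in control 2 (-4.68) and control 6 (-3.98) were below the lowest level well above background on those arrays (-4.39 and -3.57). The Gcm2 difference and its r with Chga therefore rest partly on values near background. The part that parathyroid tissue had in the Chga values was not tested.

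**Figure D4:**
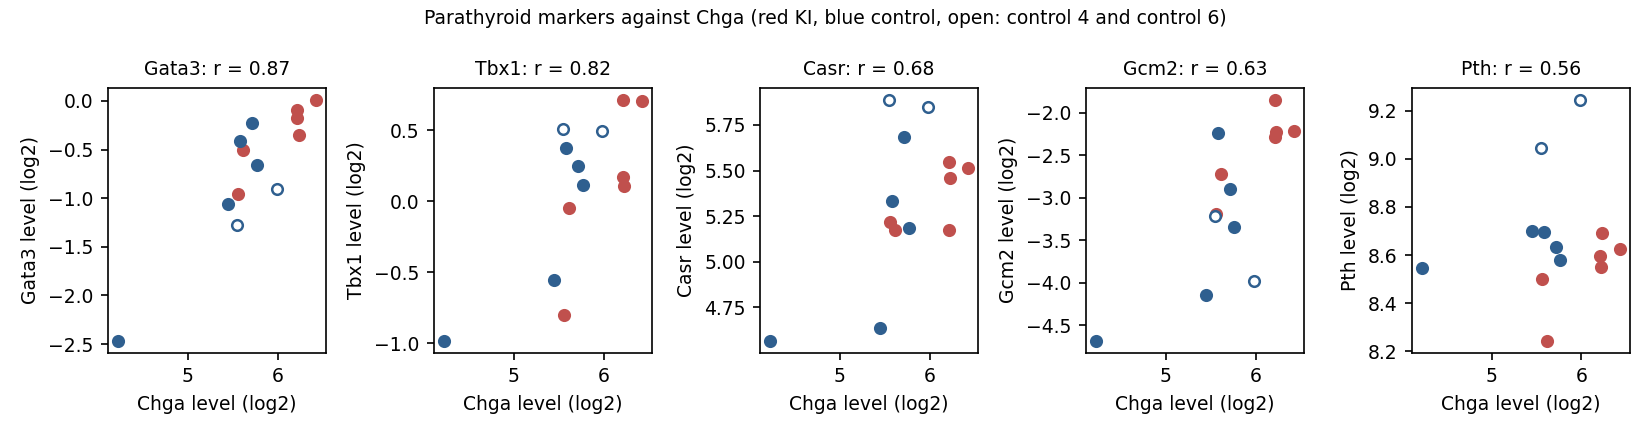
Level of 5 parathyroid markers (log2, y axis) against the level of Chga (log2, x axis), each point 1 animal, red KI-treated, blue control and open circles control 4 and control 6. All 5 have r above 0, from 0.56 for Pth to 0.87 for Gata3, and control 2 is the point at the far left.

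The neighbouring tissues were also used as references for the 9 genes. With Pth as the reference, the leading probes of Calca (r = -0.78, limma adjusted p = 0.0306) and Pcsk2 (r = -0.73, limma adjusted p = 0.0376) passed. That is 2 of 9 genes by leading probe, against a background of 14.6% of all tested probes. The Pcsk1 coding probe (r = -0.77, limma adjusted p = 0.0313) and the upstream Ret probe (r = -0.71, limma adjusted p = 0.0438) passed too. Pth was highest in control 4 and control 6, and without them the r of Calca with Pth was -0.50 and none of the 9 genes passed. With the thyroglobulin gene Tg as the reference, or with Dbh, the noradrenaline enzyme gene of sympathetic nerve, none of the 9 passed, against a background of 0.00778% in each case. Chga did not follow Dbh (r = 0.37) or Tg (r = 0.04).

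The genes whose pattern was most like that of Calca over the 13 animals, among all named genes tested, were Kif5c (r = 0.96), Rab3b (0.96), Ptprn (0.96), Jmjd6 (0.95), Gfra4 (0.94), Tmem59l (0.94), Cabp7 (0.93), Nrsn1 (0.93), B3galt6 (0.93) and Ggt7 (0.93). Ptprn encodes the dense-core granule protein IA-2, Rab3b a vesicle GTPase and Gfra4 the persephin co-receptor of RET. Without control 4 and control 6 the closest were Syt4 (0.97), Gfra4 (0.97), Uchl1 (0.97), Pik3cb (0.96), Afap1l2 (0.96), Spock3 (0.96), Olfm1 (0.96), Gdap1l1 (0.96), Rab3b (0.96) and Resp18 (0.95), so 2 genes, Gfra4 and Rab3b, were in both. All 10 passed an adjusted p of 0.05 in limma over 13 animals, and 9 of 10 over 11, Pik3cb being the exception. The median r of all probes with Calca was -0.17 over 13 animals and -0.04 over 11.

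Other genes of the pathways were counted in lists of named genes. Of the secretory granule and neuroendocrine list 13 of 17 genes were tested. Their median r with Calca was 0.38 over 13 animals and 0.84 over 11, beside -0.17 and -0.04 for all probes. With Calca 5 of 13 passed over 13 animals, against 14.7% of all tested probes, all positive: Ptprn, the granin gene Scg3, the vesicle GTPase gene Rab3a, the neuronal enolase gene Eno2 and the synaptotagmin gene Syt4. Over 11 animals 4 passed, against 0.156% of all tested probes, namely Ptprn, Syt4, the granule protein gene Resp18 and Uchl1, the gene of PGP9.5. Between the groups 0 of 13 passed. The smallest p were those of Ptprn2 (-0.52, limma adjusted p = 0.353), Sv2a (0.59, limma adjusted p = 0.355) and Uchl1 (-0.41, limma adjusted p = 0.375).

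Of the prohormone processing list 10 of 11 genes were tested, and 2 passed with Calca, against 14.7% of all tested probes. Pcsk1n, whose product inhibits PC1/3, had r = 0.82 with Calca (limma adjusted p = 0.0219) and Cpd, a carboxypeptidase gene, 0.75 (limma adjusted p = 0.0267). Over 11 animals Pcsk1n was at 0.84 and Cpd at -0.05, and neither passed. Pam, whose product amidates calcitonin and CGRP, had r = 0.45 over 13 animals and 0.93 over 11 (limma adjusted p = 0.0717). Between the groups 0 of 10 passed, and the smallest p was that of Cpd (SE of the difference 0.51, limma adjusted p = 0.412). Its mean was 0.58 in the KI-treated group (SD 0.13) and -0.41 in the control group (SD 1.41). The wide spread of the control group reached down to -2.52.

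GDNF-family ligands reach RET through the GFRA co-receptors. Of the 7 tested genes of the GDNF family list 1 passed with Calca, a share near the 14.7% of all tested probes, and it was Gfra4 (r = 0.86 for its leading probe, limma adjusted p = 0.0158, and 0.91 over 11 animals, limma adjusted p = 0.0672). The other 6, among them Gfra1 (-0.36), Gfra2 (-0.57) and Gfra3 (-0.56), had r below 0 over both 13 and 11 animals. Between the groups 0 of 7 passed, with a median difference of -0.25.

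**Figure D5:**
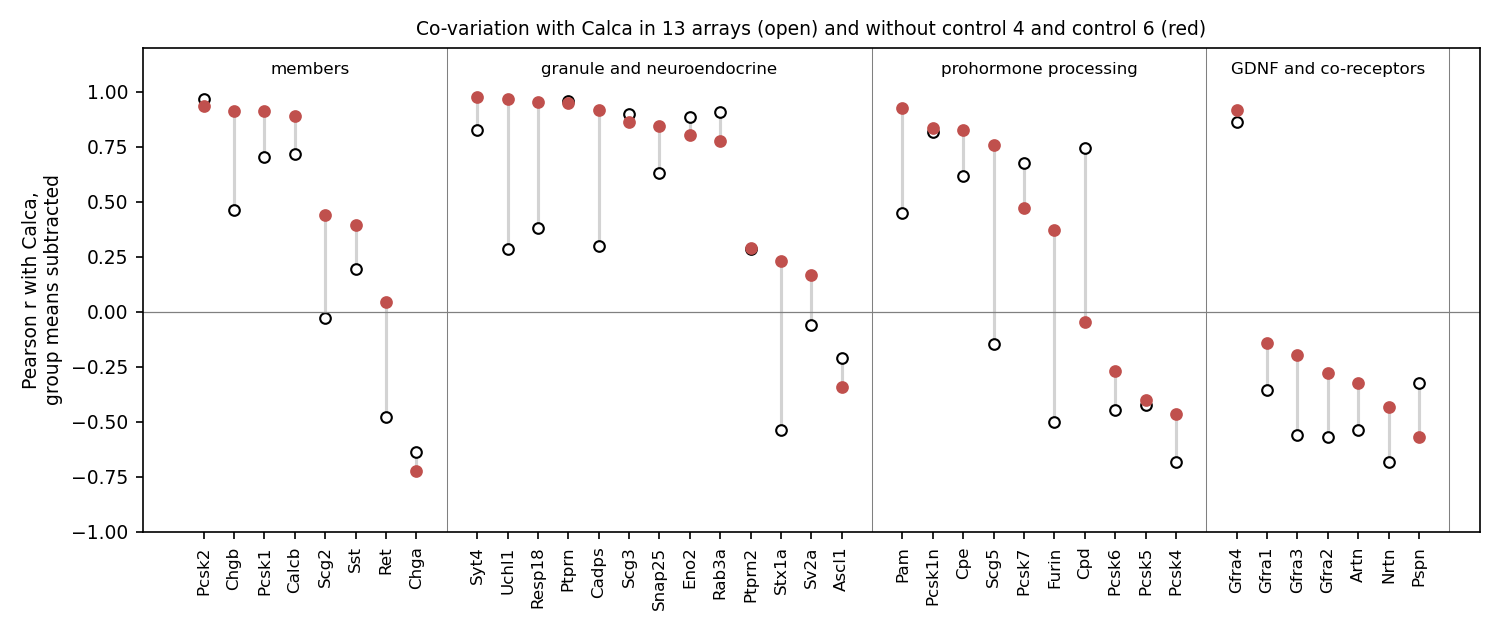
Pearson r with the shared Calca probe after subtracting group means (y axis) for the other 8 genes and for the tested genes of 3 lists (x axis), over 13 animals (open circles) and without control 4 and control 6 (red). Pcsk2 is at 0.96 and 0.94, Ptprn at 0.96 and 0.95, and Chgb moves from 0.46 to 0.91.

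The calcitonin and CGRP receptor list held 7 tested genes of 9, Calcr, the calcitonin receptor gene, and Iapp not being tested, and 1 of 7 passed with Calca, near the 14.7% of all tested probes. Calcrl, the CGRP receptor gene, had r = -0.74 with Calca (limma adjusted p = 0.0388) and -0.37 over 11 animals, where it did not pass. Ramp3, a partner of that receptor, had the smallest p between the groups of this list (0.40, limma adjusted p = 0.390). Of 8 tested C cell regulators of 11, Isl1 (r = 0.72, limma adjusted p = 0.0331) and Nkx2-1 (r = -0.83, limma adjusted p = 0.0288) passed with Calca over 13 animals, 2 of 8 against the same 14.7%, and neither over 11. The amine enzyme genes Ddc (-0.38, limma adjusted p = 0.382) and Tph1 (-0.44, limma adjusted p = 0.388) had the smallest p between the groups. Of the somatostatin receptor list 3 of 6 genes were tested and none passed in either comparison.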

How the data were processed

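RNA from the thyroid of 13 male rats was measured on Agilent one-colour (Cy3) 60-mer arrays. Per the file headers, the authors extracted each array with Feature Extraction 10.7.3.1, and the deposited processed signal is an intensity after background subtraction. The deposited table of log2 values served only as an alternative, its centring being unstated.

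Spots of controls or with an outlier flag were dropped, replicate spots of a probe were averaged on the log2 scale, and the 75th percentile of each array over its probes was subtracted. The test used limma 3.58.1 (R 4.3.3) with Benjamini-Hochberg adjustment over all 25713 probes that 6 or more arrays showed well above background. For each gene the brightest probe led. Exact permutation tests were two-sided over all 1716 ways to choose the KI-treated animals, and correlations used 100000 permutations within groups. The fits were first tested on simulated data with known changes.

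The 9 genes and all lists were chosen with earlier results of these data known. The named genes were every probe of the 9 genes, the references Pth, Tg and Dbh, the 10 genes most like Calca and, per list, up to 3 genes with the smallest p. Chga, Sst and the second Calca probe as references were added after seeing the data, as were the values without control 4 and control 6. Other alternatives were quantile normalization, normexp background, array weights, slide or replicate number as a block, and leaving out each animal. The number of arrays limits the precision. Probe positions are those of the files' build rn4, promoters those of RefSeq GRCr8, and the 2 builds were not mixed. Of the other marker lists, 7 of 9 nerve, 6 of 6 muscle, 5 of 5 adipocyte, 3 of 4 erythroid and 2 of 4 cartilage genes were well above background on at least 6 arrays.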

Additional observations from a re-analysis of the deposited data

Results flagged for a closer look

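Chga in control 2 lay far below the other control animals, at 4.22 on the log2 scale against 5.45 in the next lowest animal, a gap of 0.694 of the group's whole range. It was the single value so marked among 26 groups of values tested, of which chance marks about 1 in 20. In the same animal Gata3 was lowest (-2.47) and the shared Calca probe highest (7.93).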

How the results depend on the processing

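The count of the 13 probes past an adjusted p of 0.05 between the groups was 0 under every alternative run. The Calca difference, 0.15, turned to -0.041 with array weights, -0.26 without control 4 and control 6 and -0.39 for the CGRP probe, and ran from -0.055 to 0.31 when single animals were left out. Without scan session 1 Calcb was at 0.17, Chgb at 0.078, Scg2 at 0.23 and Pcsk2 at -0.034. Pcsk2 was at -0.024 with array weights and -0.21 without control 4 and control 6, and Scg2 at 0.051 without them. The upstream Ret probe was at 0.126, and at -0.124 without control 4 and control 6. Leaving out single animals gave -0.40 to 0.061 for Calcb, -0.26 to 0.074 for Scg2, -0.076 to 0.25 for Pcsk2, -0.92 to -0.15 for Sst, -0.32 to -0.039 for Pcsk1 and -0.40 to -0.12 for Chgb. With Calca, the count of 3 genes past the threshold was 0 with slide as a block and with the CGRP probe, and 1 to 3 without single animals, and the count over all probes, 3778, was 39 without control 4, 657 without control 2, 1082 without control 6 and 0 with slide as a block. The r of Chgb was -0.067 with slide as a block, and that of Ret 0.045 without control 4 and control 6. The r of Chga, -0.64, was -0.41 with normexp and quantile normalization. The r of Scg2, -0.03, was 0.026 with quantile normalization, 0.042 with normexp, 0.078 in the deposited values, 0.028 with the percentile over spots and 0.44 without control 4 and control 6, and ran from -0.21 to 0.15 without single animals. With Pth, Tg and Dbh, the count of 2 was 0 without control 4 and control 6, 0 with either quantile setting, 0 in the deposited values, 0 with the percentile over spots, 1 with slide as a block, and 0 to 2 without single animals. With Chga, 49 probes passed, and 36 did with the percentile over spots, 5 in the deposited values, 18 without control 6, and 0 with quantile normalization or without control 2. The causes were not tested.

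Replicate numbers did not pair the animals: deviations of same-numbered animals had r from -0.109 to 0.071. With a replicate block, 0 probes passed between the groups and the Calca difference was 0.26, 0 genes passed with Calca and 0 with Pth, Tg and Dbh, and the r with Calca was 0.040 for Scg2 and -0.94 for Chga.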

Other observations

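The 10 genes most like Chga over the 13 animals, chosen after its values were seen, were Hhatl (r = 0.96), Paqr5 (0.94), Ddx11 (0.93), Cited2 (0.93), Clmp (0.93), Pax1 (0.93), Tnfrsf11b (0.92), Cr2 (0.92), Kl (0.92) and Adgrg2 (0.91). All 10 passed an adjusted p of 0.05 in limma with Chga as the reference, and no probe did without control 2 or with quantile normalization. In the deposited values 5 probes passed, against 49. Pax1 encodes a transcription factor of the pharyngeal pouches and Kl encodes klotho, the co-receptor of FGF23.

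Cyp2r1, which encodes a vitamin D 25-hydroxylase, was 1 of the 40 probes that passed with Calca without control 4 and control 6, with r = 0.95. In the RefSeq gene table of the assembly GRCr8 Cyp2r1, Calca and Calcb stand next to each other in this order. The gene was chosen after its value was seen, and its difference between the groups was -0.06 on the log2 scale (limma adjusted p = 0.878).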
